A study of Mus musculus with 15 samples.

Results

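The genes described here were those whose transcripts stood lower at 12 months than at 2 months of age in mouse inguinal white adipose tissue, whether the animals had received CL or vehicle. Polyadenylated RNA of the inguinal fat of C57BL/6 mice was sequenced in 15 libraries: 4 from animals 2 months old given the vehicle control (Young_Ctrl), 4 from animals 2 months old given CL (Young_CL), 3 from animals 12 months old given the vehicle control (Old_Ctrl, replicates 1, 3 and 4; replicate 2 was not analysed here) and 4 from animals 12 months old given CL (Old_CL). Every group shared 2 weeks at thermoneutrality before 5 days of intraperitoneal injection, so no group stands for fat at room temperature. One label reads CL as cardiolipin, and the same abbreviation is in common use for a β-adrenergic agonist. Which of these was injected is not settled by the sources used here, so the name CL is kept. Whether every library came from its own animal is not stated, so p-values measure the spread between these libraries, which may in part be technical.

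A gene was chosen where its mean reached at least 5 CPM (the usual per-library scaling of counts, here by the library total) in some group, its aged mean was at most 0.5 of the young mean with vehicle and again with CL, and every aged library lay below every young library of the same treatment. Of 24015 genes in the table, 12479 reached the level, 221 of them also met both ratios, and 185 of those had no overlap. After 18 were left out for symbols of unnamed gene models, of immunoglobulin segments or ending in Rik, 167 genes remained, and all 167 passed the filter on low counts used for testing. The opposite rule, for genes higher at 12 months under both treatments, found 113. Because the age differences chose the genes, they are given as a description with no test. The rule did not compare CL with vehicle at 12 months. That every gene reached 5 CPM in a young group follows from the ratios. Aged levels did enter through the ratios and the overlap, so the CL response at 12 months is not wholly apart from the choice. At 2 months the CL response also entered through that floor. Of the 167 genes, 148 reached 5 CPM under both treatments, 7 only with CL (Ttc25, Aspg, Cpn2, Slc27a2, Otop1, Cldn22 and Myo5c) and 12 only with vehicle (Igfbp2, Ctse, Tet1, Slc16a5, Gapt, Trat1, Unc5cl, Dsc2, Mex3a, Shisa3, Mir8113 and Cd40lg). These 19 had to be high under that treatment, so their differences with CL at 2 months are a description and their calls there support nothing. Under the other treatment their young mean was below 5 CPM, and the ratio held the aged mean lower still. Their differences at 12 months are therefore a description too, and their calls at that age support nothing.

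Inguinal fat is a white depot whose adipocytes can switch on a heat-producing program. In that program the mitochondrial carrier Ucp1 lets protons re-enter the matrix without making ATP, and the fuel is fat that the cells store, release and rebuild through fatty acid synthesis, desaturation and elongation. The depot also surrounds a lymph node, packed with B cells in follicles and T cells between them, and blood lymphocytes enter it through vessels coated with mucins such as Glycam1. A piece of this tissue therefore carries adipocyte, vascular, nerve, immune and, where dissection takes it along, node and muscle RNA.

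Total counts ran from 6115542 to 51577001 per library, so that 3 counts correspond to between 0.0582 and 0.491 CPM. Of the 167 genes, 8 had fewer than 10 counts in at least 1 library (Igfbp2, Ttc25, Aspg, Cpn2, Trat1, Slc27a2, Cldn22 and Myo5c). Libraries 1, 2 and 4 of Old_CL differed from each other by a robust SD of 0.0636 to 0.0933 on the log2 scale, against 0.116 to 0.747 in the 18 other pairs of libraries within a group. Each pair was compared over the genes with at least 1000 counts in both of its libraries, so the genes differ between pairs. The skeletal muscle markers summed to 3190 to 10490 CPM in 5 libraries (Young_CL 1, 2 and 3, Old_Ctrl 3 and Old_CL 3) and to 106 to 546 CPM in the others. Results for CL are therefore also given with those Old_CL libraries summed to 1 and without the muscle-rich libraries, which leaves 1 Young_CL library whose spread is assumed to be that of the other groups. Levels are on the scale of library totals, while tested changes are log2 changes ± SE after TMM scaling, which resists a few very abundant transcripts; by library totals without TMM factors the median of all tested genes shifts from -0.07 to -0.37 for CL at 2 months and from -0.01 to -0.26 at 12 months. When the rule itself was applied to TMM-scaled CPM, 91 of the 167 genes met it, among them 30 of the 69 lymphocyte genes and 8 of the 12 thermogenic and lipid genes described below.

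Roles were assigned by what the genes are known to do, after their values were seen. Cpn2 is an exception, since its enzyme function does not give its place among the thermogenic and lipid genes. Of the 167 genes 18 belong to B cells, 25 to T cells and 26 to leukocytes more broadly. These 69 are called lymphocyte genes here, although not all of the 26 are confined to lymphocytes. Another 1 belongs to node vessels and 12 to thermogenic and lipid metabolism, 15 are other enzymes and 15 other receptors, secreted or adhesion proteins. A further 3 are microRNA hairpins, and 52 were given no role. The aged to young ratio had a median of 0.412 with vehicle and 0.404 with CL over the 167 genes, where all 15288 tested genes had 0.904 and 0.915. Among the roles with more than 1 gene the lowest medians were those of the thermogenic and lipid genes, with Cpn2 counted among them, 0.3199 with vehicle and 0.233 with CL. The lymphocyte genes lay at 0.437 and 0.423. Over all tested genes, 20.5% stood lower in every aged than in every young library with vehicle and 30.0% with CL; these shares are part of the rule and nothing is read from them. The heat map of all 167 genes shows a large block that was highest in young vehicle libraries and lowest in aged CL libraries, and a small block that was highest in young CL libraries.

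**Figure D1:**
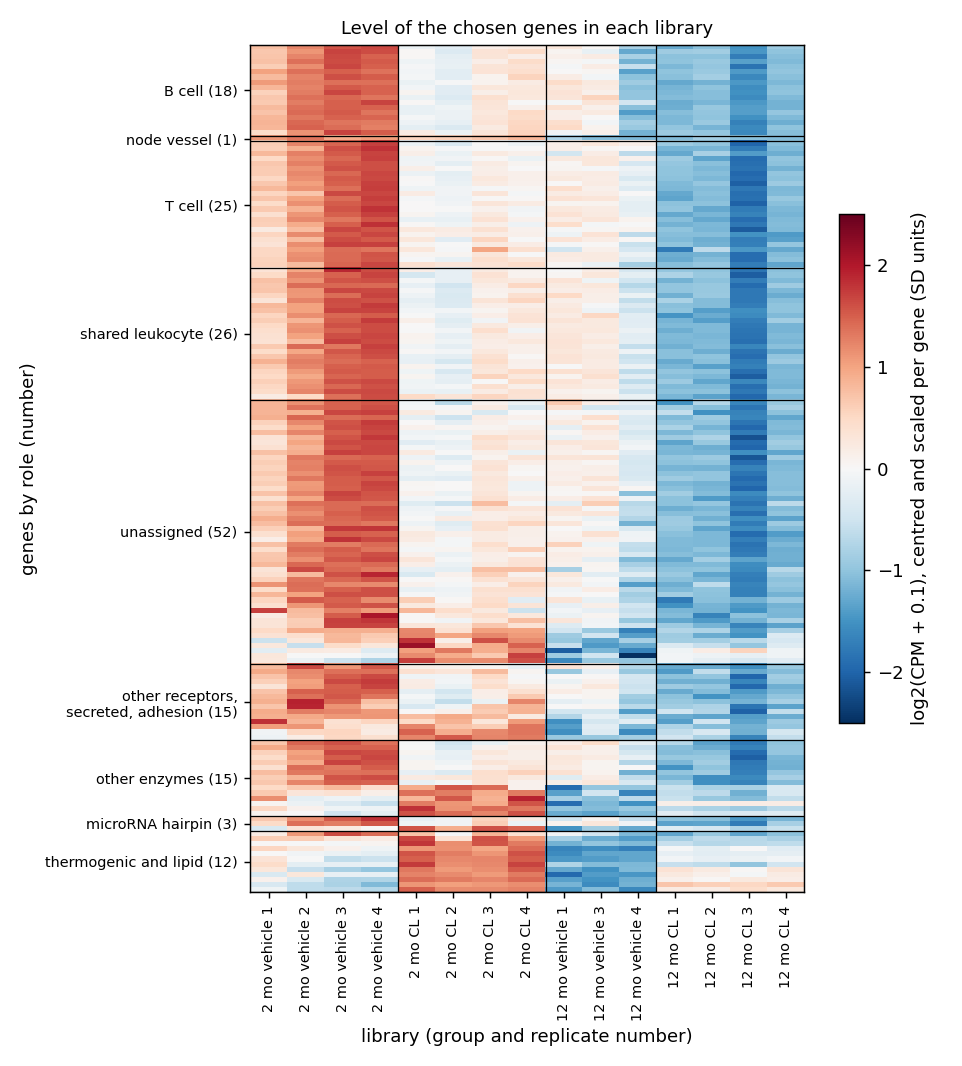
Level of each of the 167 genes (rows, grouped by role, ordered within a role by the log2 change with CL at 2 months) in each of the 15 libraries (columns), as log2(CPM + 0.1) centred and scaled per gene; red is above and blue below the gene's own mean. The B cell, T cell and shared leukocyte rows are reddest in the 4 young vehicle libraries and bluest in aged CL library 3, while most of the 12 thermogenic and lipid rows are reddest in the young CL libraries.

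With CL at 2 months, 114 of the 148 genes that reached 5 CPM under both treatments fell and 20 rose, where 22.1% of all 15288 tested genes fell and 21.7% rose. Over all 167 genes the calls numbered 124 lower and 27 higher. At 12 months 116 of the 167 fell and 17 rose, against 22.2% and 23.1% of all tested genes. Of the 148 genes, 107 fell and 10 rose at 12 months. The median log2 change of the 167 genes was -0.78 at 2 months and -0.83 at 12 months, and that of all tested genes -0.07 and -0.01. Over the 167 genes 112 were called lower and 17 higher at both ages, the 7 chosen through the young CL group among the latter. No gene of the 167 was called in opposite directions. Of all 15288 tested genes 2219 were called lower and 1730 higher at both ages, and 124 in opposite directions. Among the fallen genes were 63 of all 69 lymphocyte genes at 12 months. Of the 67 past the floor under both treatments, 66 fell at 2 months and 61 at 12 months. Among the risen genes were 8 of the 9 such thermogenic and lipid genes at 2 months. At 12 months 7 of these 9 and 10 of all 12 rose. The other 3 of the 12 (Cpn2, Slc27a2 and Otop1) were chosen through the young CL group, so their calls add nothing. Fewer cells of a type and less RNA per cell cannot be told apart in bulk tissue. Without the 5 muscle-rich libraries 20 genes fell and 23 rose at 2 months, and 54 fell and 19 rose at 12 months. The median log2 change of the 167 genes was then -0.66 and -0.597, and the calls over all tested genes went from 3383 to 1115 lower and 3323 to 1859 higher at 2 months, and from 3391 to 2486 and 3525 to 2513 at 12 months. With Old_CL 1, 2 and 4 summed the counts at 12 months were 107 and 14.

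B cell genes stood lower at 12 months by similar ratios, 0.295 to 0.4804 with vehicle and 0.389 to 0.494 with CL, and all 18 fell with CL at 2 months while 12 of 18 fell at 12 months. Cd79b, a signalling chain of the B cell antigen receptor, stood at 216, 302, 323 and 319 CPM with vehicle and 122, 128, 162 and 146 CPM with CL at 2 months. Aged Cd79b levels were 169, 146 and 74.3 CPM with vehicle and 67.3, 78.3, 60.9 and 68.5 CPM with CL. Library Old_Ctrl 4 lay below every other vehicle library, and the aged vehicle and young CL libraries overlapped. Cd79b fell with CL by 0.75 at 2 months (adjusted p = 0.00255) and by 0.65 at 12 months (adjusted p = 0.00983) on the log2 scale. The call at 12 months was lost without library Old_Ctrl 1 (-0.43, adjusted p = 0.0783). H2-Ob, a chain of the class II chaperone that tunes peptide loading in B cells, stood at 189, 271, 367 and 326 CPM with vehicle and 119, 99.1, 147 and 132 CPM with CL at 2 months. Aged H2-Ob levels were 129, 135 and 67.04 CPM with vehicle and 57.6, 57.5, 35.7 and 55.99 CPM with CL. For H2-Ob the CL libraries lay below the vehicle libraries at both ages. Its log2 change with CL was -0.90 ± 0.20, adjusted p = 0.00248 at 2 months and -0.83 ± 0.22, adjusted p = 0.00634 at 12 months.

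Ms4a1, which encodes the B cell surface protein CD20, stood at 119.6, 161, 249 and 237 CPM with vehicle and 74.8, 57.1, 93.7 and 102 CPM with CL at 2 months. Aged Ms4a1 levels were 76.5, 64.04 and 29.02 CPM with vehicle and 38.3, 39.2, 25.4 and 35.3 CPM with CL. It fell at 2 months (-0.92 ± 0.26, adjusted p = 0.0106), whereas at 12 months its change missed the threshold (-0.44 ± 0.28, adjusted p = 0.218), and library Old_Ctrl 4 overlapped with the aged CL libraries. The other B cell genes that did not pass at 12 months were Cr2, a complement receptor of mature B cells and follicular dendritic cells (-0.54, adjusted p = 0.103), Fcer2a, the low-affinity IgE receptor (-0.48, adjusted p = 0.103), Tnfrsf13c, the receptor for the survival factor BAFF (-0.48, adjusted p = 0.0867), Faim3 (-0.55, adjusted p = 0.0806) and the transcription factor Bcl11a (-0.56, adjusted p = 0.0599). Transcription factors of the lineage fell at both ages: Pax5, which holds B cell identity, changed by -0.82 and -0.86, Bach2 by -0.88 and -0.87, Spib by -0.74 and -0.63 and Pou2f2 by -0.73 and -0.80 at 2 and 12 months. So did Cxcr5, the chemokine receptor that draws B cells into follicles (-0.71 and -0.71), the kinase Blk (-0.78 and -0.90), the scaffold Bank1 (-0.80 and -0.71), Fcrla (-0.96 and -0.74) and Mzb1, an endoplasmic reticulum protein of antibody-making B cells (-0.78 and -0.77).

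All 25 T cell genes were called lower with CL at 12 months and 24 at 2 months, at each age 23 of them past the floor under both treatments. The median log2 changes at 12 and 2 months were -1.08 and -0.92. Cd3e, a chain of the T cell receptor complex, stood at 59.1, 72.5, 94.96 and 118 CPM with vehicle and 35.96, 34.3, 38.3 and 37.9 CPM with CL at 2 months. Aged Cd3e levels were 47.7, 45.9 and 33.5 CPM with vehicle and 15.4, 18.02, 10.7 and 19.9 CPM with CL. The 4 aged CL libraries were the lowest of all, and the aged vehicle and young CL libraries overlapped. It fell at 2 months (-0.93 ± 0.18, adjusted p = 7.31e-04) and at 12 months (-1.16 ± 0.19, adjusted p = 2.79e-04). Lck, the kinase that starts signalling at that receptor, stood at 133, 201, 241 and 269 CPM with vehicle and 97.3, 97.1, 114 and 93.02 CPM with CL at 2 months. Aged Lck levels were 109, 109 and 83.9 CPM with vehicle and 40.9, 42.2, 25.8 and 44.9 CPM with CL. No Lck value with CL reached up to a vehicle value of the same age. Lck fell by 0.76 and 1.14 on the log2 scale (adjusted p = 0.00204 and 1.94e-04). Both helper and killer T cell co-receptors fell: Cd4 changed by -0.73 and -1.04, and Cd8b1 by -0.88 and -1.06, at 2 and 12 months.

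The stretches just before the start sites of Lck and of Cd5, an inhibitory receptor of T cells, are shown because these 2 genes fell together with CL and each holds a motif of a lymphoid transcription factor family. They are the 250 bases before the annotated start in RefSeq, build GRCm38.p6, on the strand of the gene: chr4:129573642-129573891 (minus strand) and chr19:10738975-10739224 (minus strand). The counts themselves were made on the mm9 build, from which no coordinates are used. Capitals mark the matches to TGTGGTT (a RUNX motif), GAGGAAGT (a purine-rich ETS motif) and CCAAT (the CCAAT box) on either strand.
Lck: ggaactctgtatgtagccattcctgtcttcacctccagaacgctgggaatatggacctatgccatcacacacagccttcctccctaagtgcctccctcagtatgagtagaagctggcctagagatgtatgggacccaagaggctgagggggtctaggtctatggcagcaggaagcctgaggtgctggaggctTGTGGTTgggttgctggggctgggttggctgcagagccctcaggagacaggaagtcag
Cd5: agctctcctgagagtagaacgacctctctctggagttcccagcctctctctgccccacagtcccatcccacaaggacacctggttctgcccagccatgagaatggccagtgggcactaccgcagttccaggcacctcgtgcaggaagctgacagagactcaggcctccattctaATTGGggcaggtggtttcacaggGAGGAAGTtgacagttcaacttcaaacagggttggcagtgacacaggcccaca
In Lck the RUNX match lies 58 to 52 bases before the start. In Cd5 the CCAAT match lies 76 to 72 and the ETS match 53 to 46 bases before it. Of the 167 genes 114 matched a gene of the promoter table; 6.14% of these held TGTGGTT against 4.46% of all 27025 promoters, 6.14% against 2.44% held GAGGAAGT, and 0.877% against 1.61% held the octamer ATGCAAAT known from B cell promoters. These matches describe the letters only.

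Among kinases and adaptors of T cell signalling, Txk stood at 16.3, 24.9, 29.5 and 35.5 CPM with vehicle and 9.28, 8.02, 10.3 and 9.45 CPM with CL at 2 months. Aged Txk levels were 11.7, 12.4 and 11.6 CPM with vehicle and 5.34, 5.03, 2.41 and 4.84 CPM with CL. All Txk values with CL lay below all those with vehicle at the same age. It fell with CL by 1.22 (adjusted p = 3.25e-04) at 2 months and by 1.22 (adjusted p = 6.62e-04) at 12 months on the log2 scale. Ms4a4b, a surface protein of naive T cells and a relative of CD20, stood at 88.9, 114, 202 and 234 CPM with vehicle and 59.1, 53.8, 54.8 and 56.2 CPM with CL at 2 months. Aged Ms4a4b levels were 63.4, 57.5 and 55.6 CPM with vehicle and 22.01, 22.1, 13.6 and 23 CPM with CL. For Ms4a4b the CL libraries lay below the vehicle libraries at both ages. It fell by 1.19 (adjusted p = 6.78e-04) and 1.31 (adjusted p = 6.29e-04). Themis, which helps thymocytes to be selected, stood at 10.3, 16.6, 35.4 and 32.3 CPM with vehicle and 10.7, 10.04, 11.8 and 9.37 CPM with CL at 2 months. Aged Themis levels were 8.31, 8.84 and 9.09 CPM with vehicle and 3.56, 3.15, 1.37 and 3.28 CPM with CL. Themis fell at 12 months (-1.44 ± 0.34, adjusted p = 0.00358) and at 2 months (-0.88 ± 0.30, adjusted p = 0.0281), although library Young_Ctrl 1 overlapped with the young CL libraries. Trat1, an adaptor bound to the receptor complex, stood at 3.54, 5.99, 8.77 and 8.31 CPM with vehicle and 2.74, 1.98, 5.72 and 3.12 CPM with CL at 2 months. Aged Trat1 levels were 1.23, 2.33 and 1.299 CPM with vehicle and 0.254, 0.995, 0.398 and 0.489 CPM with CL. For Trat1 the CL and vehicle libraries overlapped at 2 months, and CL lay below vehicle at 12 months. It rests on few counts, 4 to 18 in the aged CL libraries, and differed by -0.76 ± 0.35 at 2 months and -1.44 ± 0.43 at 12 months.

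Of the co-stimulatory molecules, Cd28 stood at 28.02, 31.7, 64.8 and 66.2 CPM with vehicle and 21.8, 17.6, 23.6 and 18.2 CPM with CL at 2 months. Aged Cd28 levels were 22.02, 21.5 and 18.8 CPM with vehicle and 7.12, 8.57, 4.47 and 8.17 CPM with CL. All Cd28 values with CL lay below all those with vehicle at the same age. It fell at both ages (-0.93 ± 0.24, adjusted p = 0.00548 and -1.32 ± 0.26, adjusted p = 0.00103). Cd226, an adhesion receptor of T and natural killer cells, stood at 10.3, 13.7, 25.2 and 23.6 CPM with vehicle and 9.503, 6.36, 11.4 and 7.69 CPM with CL at 2 months. Aged Cd226 levels were 10.01, 8.92 and 7.93 CPM with vehicle and 3.498, 3.21, 2.19 and 2.89 CPM with CL. For Cd226 the CL and vehicle libraries overlapped at 2 months, and CL lay below vehicle at 12 months. Cd226 fell at 12 months (-1.36, adjusted p = 6.67e-04) and at 2 months (-0.78, adjusted p = 0.0128). Cd40lg, the signal by which helper T cells stimulate B cells, stood at 6.08, 8.63, 10.8 and 12.3 CPM with vehicle and 3.56, 2.73, 3.76 and 3.504 CPM with CL at 2 months. Aged Cd40lg levels were 2.15, 3.63 and 1.81 CPM with vehicle and 1.08, 1.603, 0.969 and 1.13 CPM with CL. No Cd40lg value with CL reached up to a vehicle value of the same age. Its log2 difference with CL was -1.19 ± 0.23 at 2 months and -0.89 ± 0.26 at 12 months. The lowest aged to young ratios among the T cell genes with vehicle were those of Trat1 (0.243 with vehicle and 0.157 with CL), Cd40lg (0.268 with vehicle and 0.353 with CL) and Ccr9, a chemokine receptor that directs T cells to the gut (0.281 with vehicle and 0.244 with CL). The transcription factors of naive T cells Tcf7 (-0.999 and -1.05), Lef1 (-0.9997 and -1.08) and Satb1 (-0.77 and -0.68) fell at 2 and 12 months. The signalling genes Prkcq (-0.90 and -1.19), Rasgrp1 (-0.99 and -1.11), Skap1 (-1.08 and -1.26) and Grap2, which carry the receptor's signal inward, fell at both ages, as did the receptors Cd2, Cd5, Cd27 and Slamf1.

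Of the 26 genes shared by leukocytes, 25 fell with CL at 2 months and all 26 at 12 months. Ptprc, which encodes the pan-leukocyte phosphatase CD45, stood at 449, 689, 1026 and 1069 CPM with vehicle and 371, 308, 410.3 and 389 CPM with CL at 2 months. Aged Ptprc levels were 429, 398 and 294 CPM with vehicle and 168, 164, 103 and 167.2 CPM with CL. The aged CL libraries lay below all others, and Old_CL 3 below the other 3. Ptprc fell by 0.81 at 2 months (adjusted p = 0.00553) and by 1.06 at 12 months (adjusted p = 0.00147) on the log2 scale. Ets1, a transcription factor of lymphocytes that endothelium also makes, stood at 316, 484, 615 and 622 CPM with vehicle and 225, 219, 274 and 304 CPM with CL at 2 months. Aged Ets1 levels were 259, 252 and 179 CPM with vehicle and 137, 137, 89.05 and 137 CPM with CL. All Ets1 values with CL lay below all those with vehicle at the same age. It changed by -0.68 ± 0.18, adjusted p = 0.00637 and -0.63 ± 0.19, adjusted p = 0.0146. The lymphoid zinc finger factor Ikzf1 fell by 0.82 at 2 months and 1.01 at 12 months on the log2 scale. Cd69, induced when lymphocytes are activated, stood at 15.8, 19.4, 35.99 and 42.9 CPM with vehicle and 19.4, 17.2, 19.8 and 17.7 CPM with CL at 2 months. Aged Cd69 levels were 15.6, 14.99 and 12.2 CPM with vehicle and 6.11, 5.31, 3.38 and 6.07 CPM with CL. For Cd69 the CL and vehicle libraries overlapped at 2 months, and CL lay below vehicle at 12 months. It fell at 12 months (-1.21 ± 0.26, adjusted p = 0.00174), and its change at 2 months missed the threshold (-0.32 ± 0.23, adjusted p = 0.277). Nothing is read from the difference between the ages, because the rule bounded the age contrasts it is made of. Gimap4, a GTPase of lymphocyte survival that neighbours the members Gimap8 and Gimap9 on the chromosome, stood at 200.5, 226, 323 and 351 CPM with vehicle and 113, 100.1, 136 and 136 CPM with CL at 2 months. Aged Gimap4 levels were 140.3, 121 and 99.1 CPM with vehicle and 65.9, 64.6, 44.2 and 67.8 CPM with CL. No Gimap4 value with CL reached up to a vehicle value of the same age. Its changes were -0.87 and -0.74, both called. Receptors in the group that fell at both ages were Btla, an inhibitory receptor (-0.74 and -0.95), Il21r, the receptor for interleukin 21 (-0.69 and -0.99), Gpr183, which guides B cells along oxysterols (-0.78 and -0.80), Xcr1, the receptor of cross-presenting dendritic cells (-0.71 and -0.76), Gpr18, Gpr171, Gpr174, P2ry10 and the sialomucin Spn. So did the transcription factors Stat4 (-0.88 and -1.15), Myb (-0.73 and -1.24), Rel (-0.87 and -0.82) and Ikzf3 (-0.91 and -0.89), the class II gene H2-Eb2 (-0.83 and -1.28), the GTPase Rhoh, and Nlrc3, Tbc1d10c and Cytip.

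**Figure D2:**
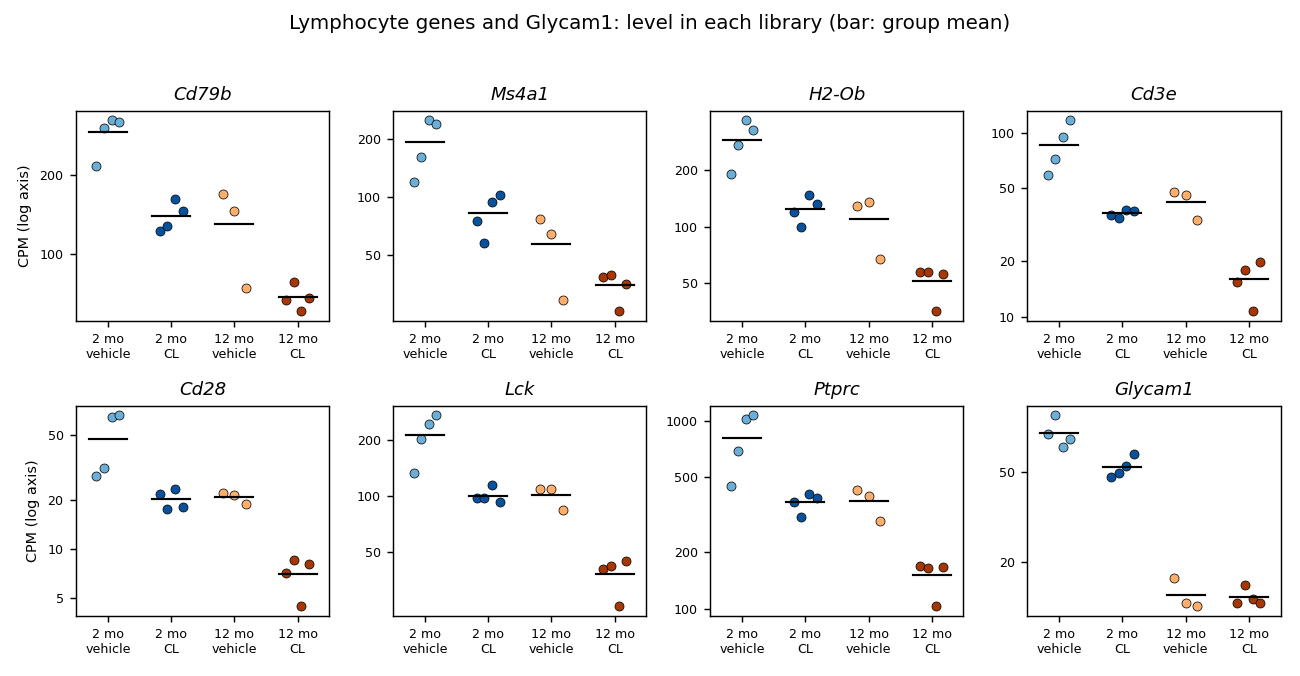
CPM on a log axis in each of the 15 libraries (points, in order of replicate number) for 3 B cell genes (Cd79b, Ms4a1, H2-Ob), 3 T cell genes (Cd3e, Cd28, Lck), the leukocyte gene Ptprc and the node vessel gene Glycam1; horizontal bars are group means. In the 7 lymphocyte genes the young CL and aged vehicle groups lie between young vehicle and aged CL, while Glycam1 lies at 12.7 to 16.9 CPM in all 7 aged libraries.

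Glycam1, the mucin of node vessels, was called for CL at neither age. It stood at 73.6, 89.3, 64.4 and 70.5 CPM with vehicle and 47.4, 49.3, 53.1 and 59.95 CPM with CL at 2 months. Aged Glycam1 levels were 16.9, 13.03 and 12.7 CPM with vehicle and 13.04, 15.7, 13.6 and 13.1 CPM with CL. For Glycam1 the CL libraries lay below the vehicle libraries at 2 months and overlapped with them at 12 months. Its aged to young ratios were 0.191 with vehicle and 0.264 with CL, lower than those of every B cell gene under the same treatment, and its change with CL passed the test at neither age (-0.21 ± 0.12, adjusted p = 0.163 at 2 months and 0.24 ± 0.14, adjusted p = 0.1597 at 12 months). Mammary epithelium also makes Glycam1, and the mammary and skin epithelium markers summed to 1286 to 2217 CPM in young vehicle, 1152 to 1681 CPM in young CL, 2604 to 3565 CPM in aged vehicle and 3041 to 3218 CPM in aged CL libraries. That sum stood higher at 12 months, but of the 20 listed markers only 10 were tested. With age 5 of these were called higher and 1 lower with vehicle, where 15.1% and 12.2% of all tested genes were. With CL 1 was called higher and 0 lower, against 20.5% and 19.4%. The part of this sum in the Glycam1 levels was not tested.

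Marker lists of B cells with the lymph node and of T cells contain many of these genes, 10 of 15 (among them Cd79b, Ms4a1, Pax5, Cr2, Blk and Glycam1) and 10 of 16 (Cd3e, Cd3g, Cd2, Cd5, Cd4, Cd8b1, Lck, Tcf7, Lef1 and Themis). With vehicle 13 of the 14 tested genes of the first list and 13 of 16 of the second were called lower with age, where 12.2% of all tested genes were. With CL the counts were 14 and 16, against 19.4%. Since most of the listed genes were chosen by the same contrast, these counts support nothing further. The 11 listed markers that were not chosen, among them Cd79a, Cd22, Cd37, Cd3d, Cd8a and Ccr7, summed to 1105 to 1906 CPM in young vehicle, 659.9 to 847 CPM in young CL, 664 to 991 CPM in aged vehicle and 302 to 426 CPM in aged CL libraries. The summed 69 lymphocyte genes stood at 5803 to 11040 CPM in young vehicle, 3412 to 4552 CPM in young CL, 2786 to 4444 CPM in aged vehicle and 1245 to 1925 CPM in aged CL libraries. The aged to young ratio was 0.548 and 0.511 for the markers that were not chosen and 0.428 and 0.431 for the 69 genes, with vehicle and with CL. The rule held the ratios of each of the 69 genes to at most 0.5, and the 11 markers are those that did not meet it. The gap between these sets is thus shaped by the choice, and nothing is read from it. Ccl21a, a defining chemokine of node stroma, was at 0.0207 CPM or less in every group mean, a level that is uncertain because the gene has near-identical copies whose shared reads the counting may have left out. Madcam1 of node vessels was at 0.794 to 4.74 CPM.

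**Figure D3:**
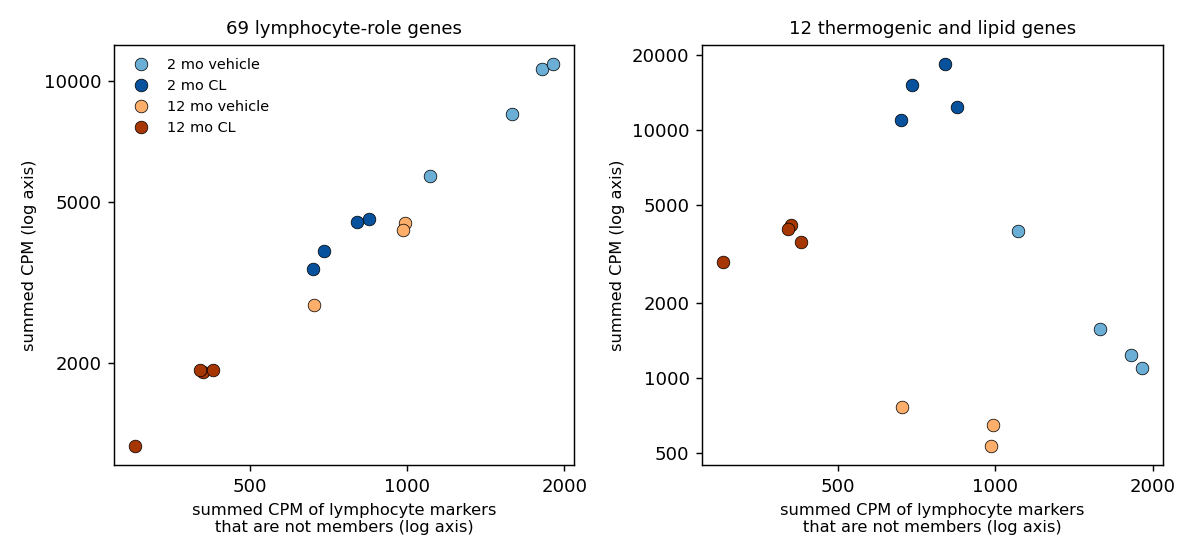
Summed CPM of the 69 lymphocyte genes (left) and of the 12 thermogenic and lipid genes (right) against the summed CPM of the 11 B and T cell markers that were not chosen, on log axes, with 1 point per library coloured by group. The lymphocyte sums climb with the marker sums over all 15 libraries, and the thermogenic and lipid sums of the young CL (11010 to 18520 CPM) and aged vehicle groups (532 to 763 CPM) lie far apart at similar marker sums. Most of the thermogenic and lipid sum is Fasn, with a mean of 11940 of 14280 CPM in young CL and 475 of 646 CPM in aged vehicle libraries.

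Within groups the lymphocyte genes also varied together. The group mean was first taken from each library. The median correlation of the 18 B cell genes with the mean of the B cell and node list was then 0.937 over 15 libraries. That of the 25 T cell genes with the T cell list was 0.921. The lists contain 9 of these B cell and 10 of these T cell genes, and each was left out of its own mean. The values share libraries and depth and are a description. For all tested genes the medians were -0.079 and -0.040. B cell genes followed the T cell list less closely (0.574), and T cell genes the B cell list (0.561). The 52 genes with no role had a median of 0.772 with the T cell list. When the mean of the B cell and node list was added to the fit as a covariate, none of the 124 genes kept its call at 2 months and 35 of the 116 kept it at 12 months, while 23 of 27 and 14 of 17 risen genes kept theirs. The median log2 change of the 167 genes was then -0.15 and -0.33. Over all tested genes the covariate took the lower calls from 3383 to 411 and the higher ones from 3323 to 1218 at 2 months. At 12 months they went from 3391 to 2022 and from 3525 to 1997. The covariate contains 10 of the chosen genes and was itself lower with CL. Of its 14 tested genes 12 were called lower with CL at 2 months and 10 at 12 months. The fit thus cannot separate the covariate from CL, and nothing is read from the lost calls.

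Most genes with no assigned role fell with CL. Of the 44 past the floor under both treatments, 35 fell at 2 months and 33 at 12 months, where 36 of all 52 did. Dgka, a diacylglycerol kinase that restrains T cell signalling, stood at 243, 332, 439 and 478 CPM with vehicle and 149, 143, 188 and 161 CPM with CL at 2 months. Aged Dgka levels were 179, 173 and 122 CPM with vehicle and 82.8, 84.8, 49.8 and 80.6 CPM with CL. For Dgka the CL libraries lay below the vehicle libraries at both ages. It fell at both ages (-0.91 ± 0.18, adjusted p = 8.88e-04 and -0.83 ± 0.19, adjusted p = 0.00265); the annotation places Pmel on the opposite strand over it, and without a stated strand setting reads of the 2 cannot be told apart. Kif21b, a kinesin motor, stood at 189.8, 313, 352 and 365 CPM with vehicle and 112, 109, 160.4 and 144 CPM with CL at 2 months. Aged Kif21b levels were 143, 164 and 103 CPM with vehicle and 73.9, 69.1, 37.1 and 65.6 CPM with CL. No Kif21b value with CL reached up to a vehicle value of the same age. Kif21b fell by 0.91 and 0.90 on the log2 scale. Shisa3, a membrane protein that overlaps Atp8a1 on the other strand, stood at 8.91, 11.1, 14.2 and 14.9 CPM with vehicle and 4.41, 2.73, 5.07 and 4.19 CPM with CL at 2 months. Aged Shisa3 levels were 7.698, 5.33 and 3.93 CPM with vehicle and 1.46, 2.65, 1.32 and 2.25 CPM with CL. All Shisa3 values with CL lay below all those with vehicle at the same age. At 2 months it had the most negative log2 difference of the 167 genes (-1.31 ± 0.24), and at 12 months its difference was -1.27 ± 0.27. Slc16a5, a monocarboxylate transporter, stood at 8.07, 11.9, 13.01 and 14.3 CPM with vehicle and 4.18, 4.13, 5.07 and 3.12 CPM with CL at 2 months. Aged Slc16a5 levels were 5.696, 2.97 and 3.08 CPM with vehicle and 2.16, 1.88, 1.02 and 2.25 CPM with CL. For Slc16a5 the CL libraries lay below the vehicle libraries at both ages. The log2 difference of Slc16a5 was -1.23 at 2 months and -0.80 at 12 months.

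Ipcef1 stood at 30.1, 43.96, 78.8 and 84.6 CPM with vehicle and 21.4, 20.3, 30.6 and 26.7 CPM with CL at 2 months. Aged Ipcef1 levels were 25.4, 28.5 and 21.2 CPM with vehicle and 9.03, 8.403, 4.499 and 10.4 CPM with CL. For Ipcef1 the CL and vehicle libraries overlapped at 2 months, and CL lay below vehicle at 12 months. Slain1, a microtubule-binding protein, stood at 12.2, 19.2, 27.2 and 26.4 CPM with vehicle and 10.8, 9.96, 10.6 and 10.1 CPM with CL at 2 months. Aged Slain1 levels were 9.699, 12.1 and 8.41 CPM with vehicle and 4.26, 4.04, 2.21 and 3.28 CPM with CL. All Slain1 values with CL lay below all those with vehicle at the same age. Plcxd2 stood at 12.7, 19.3, 31.1 and 29.2 CPM with vehicle and 9.08, 9.18, 12.6 and 10.97 CPM with CL at 2 months. Aged Plcxd2 levels were 10.8, 12.3 and 8.65 CPM with vehicle and 4.52, 3.37, 2.71 and 3.92 CPM with CL. For Plcxd2 the CL libraries lay below the vehicle libraries at both ages. These 3 were among the 8 largest falls at 12 months, with log2 changes of -1.40, -1.33 and -1.31 (adjusted p = 0.00172, 3.25e-04 and 4.32e-04). Of the genes without a role, Ttc25, Cldn22, a claudin that overlaps Wwc2 on the other strand, and the myosin Myo5c were called higher at 12 months. All 3 were chosen through the young CL group, so these calls support nothing. Ttc25, a protein of motile cilia, stood at 2.41, 1.42, 0.849 and 0.608 CPM with vehicle and 15.1, 7.48, 7.52 and 12.9 CPM with CL at 2 months. Aged Ttc25 levels were 0.154, 0.485 and 0.444 CPM with vehicle and 1.59, 1.27, 1.02 and 1.18 CPM with CL. No Ttc25 value with CL reached down to a vehicle value of the same age. Its log2 difference with CL was 3.46 at 2 months and 1.77 at 12 months, and its choice rested on the young CL group. It held 9 to 17 counts per library in young vehicle and 1 to 25 in aged vehicle. Nabp1, Utp14b (which overlaps Acsl3 on the same strand), Map2k6 and Sbk1 rose at 2 months by 1.35, 0.996, 0.73 and 0.37, and did not pass the test at 12 months.

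The other genes without a role that fell at both ages included the calcium-dependent kinase Camk4 (-1.03 and -1.14), the store-operated calcium channel Orai2 (-1.01 and -0.96), the Notch regulator Dtx1 (-0.68 and -0.93), the early growth response factor Egr3 (-0.67 and -0.89) and the cell cycle genes E2f2 (-0.64 and -0.66) and Smc4 (-0.73 and -0.66). Stk17b, Ralgps2, Atp1b1, Scml4, Nsg2, Acap1, Fam65b, Fam167a, Pacsin1, Dnah8, Treml2, Fam78a, Fam102a, Strbp, Ppp1r16b, Zfp831, Trim59, Jakmip1, Rhof, Mctp2 and Kctd14 fell at both ages too, by 0.54 for Atp1b1 up to 1.14 for Pacsin1 at 2 months and by 0.45 for Strbp up to 1.19 for Mctp2 at 12 months. Unc5cl differed by -1.18 and -1.03, and Mex3a by -0.62 and -0.61, at 2 and 12 months. Emid1, Cacna1i and Xkrx passed at 2 months alone, and Mbnl3 at 12 months alone. Gapt differed by -0.56 at 2 months and by -0.61 at 12 months. Kif20b (-0.40 and -0.42), Tesc (-0.41 and -0.49), the repressor Bhlhe40 (-0.51 and -0.59) and the ion exchanger Slc9a7 (-0.63 and -0.45) passed at neither age. Atp1b1, Fam78a, Strbp and Rhof overlap other tested genes on the opposite strand, which the counting may not have separated.

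Of 23 tested thermogenic effectors, 6 were called lower with age under vehicle and 17 under CL, against 12.2% and 19.4% of all tested genes. The list holds 5 genes that were chosen by the same contrasts, so these counts are a description and support nothing further. The summed level of the list at 12 months was 0.669 of that at 2 months with vehicle and 0.417 with CL. Ucp1, the proton carrier that makes heat in brown and beige adipocytes, stood at 28.4, 10.8, 10.4 and 9.39 CPM with vehicle and 563, 320.2, 318 and 353 CPM with CL at 2 months. Aged Ucp1 levels were 2.46, 4.61 and 1.64 CPM with vehicle and 51.5, 49.6, 79.5 and 58.1 CPM with CL. Aged CL libraries lay above every vehicle library of either age and below every young CL library. Ucp1 rose by 5.04 ± 0.43 at 2 months (adjusted p = 8.44e-07) and by 4.54 ± 0.498 at 12 months (adjusted p = 2.31e-05) on the log2 scale. The aged to young ratio was 0.197 with vehicle and 0.153 with CL. Cidea, a lipid droplet protein of brown and beige fat, stood at 129, 63.6, 36.1 and 37.04 CPM with vehicle and 830.3, 720.5, 643 and 855 CPM with CL at 2 months. Aged Cidea levels were 15.4, 12.5 and 18.7 CPM with vehicle and 134, 114, 157 and 141 CPM with CL. All Cidea values with CL lay above all those with vehicle at the same age. Cidea rose by 3.79 and 3.37 (adjusted p = 3.67e-06 and 6.25e-05). Otop1, a proton channel, stood at 7.08, 4.87, 3.68 and 2.23 CPM with vehicle and 79.7, 72.2, 79.1 and 89.4 CPM with CL at 2 months. Aged Otop1 levels were 2.001, 0.989 and 1.91 CPM with vehicle and 41.8, 35.9, 31.8 and 38.9 CPM with CL. For Otop1 the CL libraries lay above the vehicle libraries at both ages. Its log2 difference with CL was 4.55 at 2 months and 4.88 at 12 months, and its aged to young ratio was 0.366 with vehicle and 0.463 with CL. P2rx5, an ATP-gated channel used as a brown adipocyte marker, rose by 2.26 and 1.86 (adjusted p = 2.66e-06 and 1.07e-04).

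Cpn2 and Slc27a2 had the lowest ratios of aged to young vehicle libraries of the 167 genes. Cpn2, the regulatory subunit of the secreted enzyme carboxypeptidase N, stood at 1.42, 4.77, 1.98 and 1.96 CPM with vehicle and 26.6, 23.9, 19.3 and 28.9 CPM with CL at 2 months. Aged Cpn2 levels were 0, 0.155 and 0.137 CPM with vehicle and 4.52, 3.65, 2.66 and 4.16 CPM with CL. No Cpn2 value with CL reached down to a vehicle value of the same age. The aged vehicle libraries held 0, 8 and 4 counts; 0 counts in Old_Ctrl 1 allow up to 0.462 CPM, for counting error only. Cpn2 was placed among the thermogenic and lipid genes after its values were seen, a place that its enzyme function does not give. It was chosen through the young CL group, and its log2 difference with CL was 3.61 ± 0.29 at 2 months and 4.96 ± 0.45 at 12 months. Slc27a2, which takes up fatty acids and activates very long ones, stood at 4.95, 3.55, 2.76 and 2.03 CPM with vehicle and 11.1, 11.4, 8.99 and 16.8 CPM with CL at 2 months. Aged Slc27a2 levels were 0.154, 0.194 and 0.137 CPM with vehicle and 2.23, 1.66, 2.41 and 1.57 CPM with CL. All Slc27a2 values with CL lay above all those with vehicle at the same age. Its aged vehicle libraries held 1, 10 and 4 counts, and it differed by 2.21 at 2 months and by 3.75 at 12 months. Pank1, a kinase of coenzyme A synthesis, rose by 2.23 and 1.67 (adjusted p = 4.80e-08 and 1.16e-05).

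**Figure D4:**
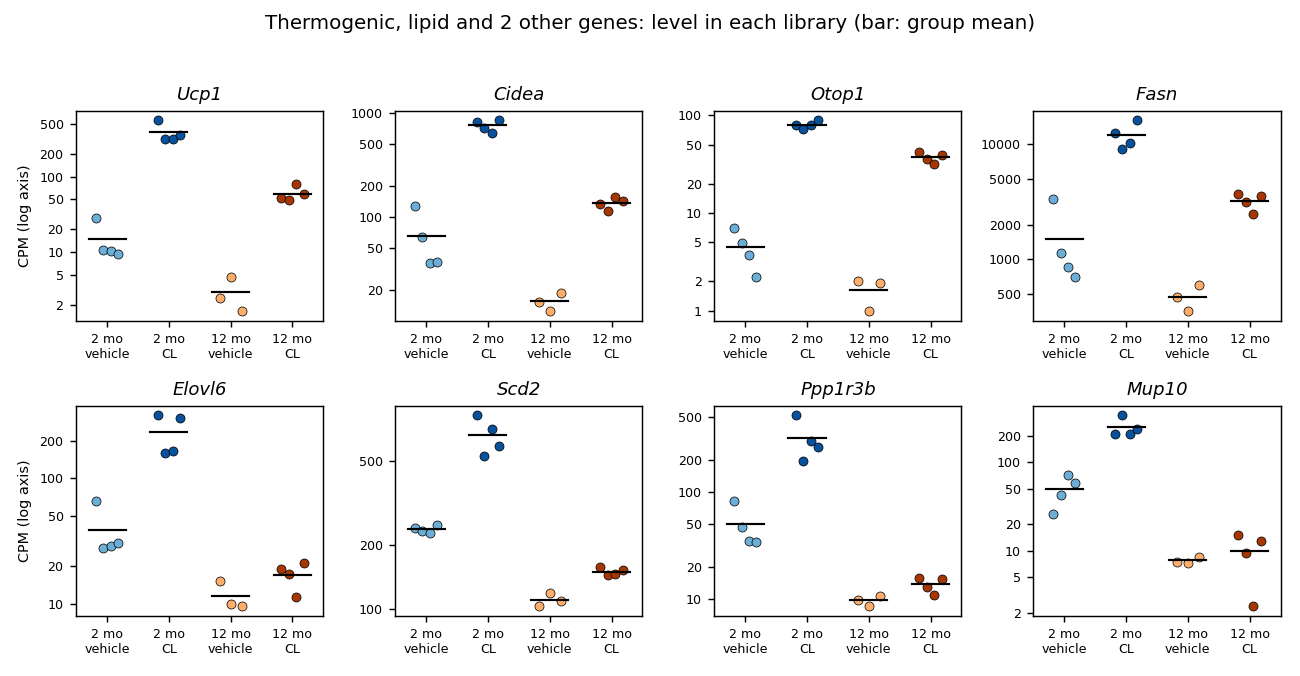
CPM on a log axis in each of the 15 libraries (points, in order of replicate number) for 6 thermogenic and lipid genes, the glycogen gene Ppp1r3b and the secreted protein gene Mup10; horizontal bars are group means. For Ucp1, Cidea, Otop1 and Fasn the aged CL mean lies above the young vehicle mean, while for Elovl6, Scd2, Ppp1r3b and Mup10 it lies below.

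The 3 fatty acid synthesis genes all rose with CL at 2 months, and at 12 months Fasn and Scd2 did. Fasn, the synthase that builds palmitate, stood at 3359, 1145, 854 and 698 CPM with vehicle and 12390, 9039, 10240 and 16100 CPM with CL at 2 months. Aged Fasn levels were 473, 356 and 596 CPM with vehicle and 3694, 3123, 2463 and 3521 CPM with CL. Library Young_Ctrl 1 lay above every other vehicle library, and the aged CL libraries overlapped with the young vehicle ones only through it. Fasn rose with CL by 3.23 ± 0.46 at 2 months (adjusted p = 6.65e-05) and by 2.98 ± 0.51 at 12 months (adjusted p = 3.86e-04) on the log2 scale. Nothing is read from the difference between those rises, because the rule bounded the age contrasts it is made of. Scd2, a desaturase that puts a double bond into saturated fatty acids, stood at 241, 234, 228 and 248 CPM with vehicle and 817, 526, 704 and 585 CPM with CL at 2 months. Aged Scd2 levels were 103, 119 and 108 CPM with vehicle and 157, 144, 146 and 152 CPM with CL. For Scd2 the CL libraries lay above the vehicle libraries at both ages. It rose by 1.76 ± 0.13 at 2 months (adjusted p = 8.01e-08) and by 0.69 ± 0.14 at 12 months (adjusted p = 9.78e-04). Elovl6, the elongase acting on palmitate, stood at 66.5, 28.1, 29.2 and 30.4 CPM with vehicle and 318, 158, 166 and 302 CPM with CL at 2 months. Aged Elovl6 levels were 15.2, 9.98 and 9.61 CPM with vehicle and 18.9, 17.4, 11.3 and 21.1 CPM with CL. For Elovl6 the CL libraries lay above the vehicle libraries at 2 months and overlapped with them at 12 months. It rose at 2 months (2.91 ± 0.35, adjusted p = 2.05e-05), and its change at 12 months missed the threshold (0.85 ± 0.38, adjusted p = 0.0853).

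The start regions of Fasn and Elovl6 are shown because these neighbours in one pathway were both low at 12 months with vehicle, and Fasn was called for CL at both ages but Elovl6 at 2 months alone. They are the 250 bases before the RefSeq start in GRCm38.p6, chr11:120824548-120824797 (minus strand) and chr3:129532136-129532385 (plus strand), with CCAAT and GAGGAAGT matches on either strand in capitals.
Fasn: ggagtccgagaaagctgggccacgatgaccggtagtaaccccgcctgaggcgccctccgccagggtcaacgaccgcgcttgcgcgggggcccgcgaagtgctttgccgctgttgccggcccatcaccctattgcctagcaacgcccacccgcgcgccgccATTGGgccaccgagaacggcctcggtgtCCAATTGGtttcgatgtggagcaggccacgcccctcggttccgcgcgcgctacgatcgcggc
Elovl6: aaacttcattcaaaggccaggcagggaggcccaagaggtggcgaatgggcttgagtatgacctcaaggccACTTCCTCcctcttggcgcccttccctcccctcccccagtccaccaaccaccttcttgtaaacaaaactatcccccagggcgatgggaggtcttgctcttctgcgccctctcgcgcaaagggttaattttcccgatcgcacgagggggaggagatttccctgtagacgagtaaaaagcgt
Fasn holds 3 CCAAT matches, at 90 to 86, 62 to 58 and 59 to 55 bases before the start, and Elovl6 a match to GAGGAAGT at 180 to 173. CCAAT was found in 28.9% of the 114 promoters and in 34.5% of all promoters of this length. The sterol regulatory motif TCACNCCAC and the cAMP response motif TGACGTCA were in none of the 114, against 1.04% and 1.62% of all promoters, and the E-box CACGTG was in 5.26% against 6.05%. A motif of these letters that is absent from the window says nothing of the factor.

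Stard4, a sterol carrier, stood at 8.07, 11.98, 15.2 and 13.7 CPM with vehicle and 10.2, 7.27, 10.8 and 8.84 CPM with CL at 2 months. Aged Stard4 levels were 7.08, 5.97 and 4.51 CPM with vehicle and 4.13, 4.87, 4.13 and 4.698 CPM with CL. For Stard4 the CL and vehicle libraries overlapped at both ages. It was the only gene of the 12 thermogenic and lipid genes whose CL change passed the test at neither age (-0.11, adjusted p = 0.607, and -0.11, adjusted p = 0.639).

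The rest of these pathways shows how the chosen genes sit among their neighbours. Of 23 tested thermogenic effectors, 5 met the rule (Ucp1, Cidea, Otop1, Slc27a2 and Cpn2); 20 of the list rose with CL at 2 months and 19 at 12 months, with median log2 changes of 2.81 and 2.09. Elovl3, Cox7a1 and Fabp3 met both ratios, but aged and young vehicle libraries overlapped. Ppargc1a, the co-activator of mitochondrial genes, came near with ratios of 0.528 and 0.542, while the regulators Prdm16 and Ebf2 had ratios of 1.30 and 1.28 and of 1.17 and 0.824. Of 21 genes of fatty acid synthesis, 3 met the rule (Fasn, Scd2 and Elovl6); 18 rose and 1 fell with CL at 2 months, and 13 rose at 12 months. Acly, the enzyme that makes acetyl-CoA for the pathway, had a ratio of 0.664 with vehicle and 0.103 with CL. Scd1, the main desaturase of adipocytes, had ratios of 1.37 and 0.918. Of 21 cholesterol synthesis genes, 2 met the rule, 18 rose and 1 fell with CL at 2 months, and 16 rose and 2 fell at 12 months. None of the 22 genes of adipocyte identity met it: with age 7 were called higher with vehicle, against 15.1% of all tested genes, and 13 with CL, against 20.5%.

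Other enzymes split by their CL response, with 7 falling and 5 rising at 2 months among the 12 past the floor under both treatments. Ppp1r3b, which brings a phosphatase to glycogen, stood at 83.1, 47, 35.1 and 33.99 CPM with vehicle and 516, 195, 299 and 261 CPM with CL at 2 months. Aged Ppp1r3b levels were 9.85, 8.61 and 10.8 CPM with vehicle and 15.9, 13.1, 11.1 and 15.5 CPM with CL. It rose at 2 months (2.96 ± 0.35, adjusted p = 1.39e-05), and at 12 months the change missed the threshold (0.74 ± 0.38, adjusted p = 0.123) although the 4 CL libraries lay above the 3 vehicle libraries. Aspg, an asparaginase, stood at 3.54, 3.15, 1.49 and 2.16 CPM with vehicle and 29.5, 22.8, 17.7 and 29.6 CPM with CL at 2 months. Aged Aspg levels were 0.462, 0.388 and 0.581 CPM with vehicle and 2.04, 1.49, 1.84 and 1.96 CPM with CL. For Aspg the CL libraries lay above the vehicle libraries at both ages. Only the young CL group took Aspg past the floor, and its log2 difference was 3.64 at 2 months and 2.19 at 12 months. Ddo, which oxidises D-aspartate, stood at 16.8, 14.01, 11.7 and 9.66 CPM with vehicle and 46.6, 40.3, 34.7 and 60.6 CPM with CL at 2 months. Aged Ddo levels were 3.08, 6.07 and 4.31 CPM with vehicle and 18.1, 18.4, 18.6 and 18.4 CPM with CL. No Ddo value with CL reached down to a vehicle value of the same age. It rose by nearly the same amount at both ages (2.12 ± 0.21, adjusted p = 1.84e-06 and 2.19 ± 0.24, adjusted p = 1.90e-05). Fn3k, which repairs glycated proteins, and Gpx8, a peroxidase of the endoplasmic reticulum, rose at 2 months (1.14 and 1.31) and did not pass at 12 months (0.56 and 0.29), while Pon1, a lactonase of lipoproteins, rose at both (0.81 and 0.76).

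Enzymes that fell included Ctse, the aspartic protease cathepsin E, which stood at 5.66, 9.95, 11.1 and 9.26 CPM with vehicle and 3.298, 2.31, 2.94 and 3.66 CPM with CL at 2 months. Aged Ctse levels were 3.85, 4.75 and 2.803 CPM with vehicle and 1.97, 1.22, 0.8699 and 1.57 CPM with CL. All Ctse values with CL lay below all those with vehicle at the same age. Its log2 difference was -1.25 ± 0.24 at 2 months and -1.23 ± 0.27 at 12 months. Bdh1, which interconverts ketone bodies, stood at 7.22, 15.2, 14.1 and 16.7 CPM with vehicle and 5.58, 5.29, 6.05 and 6.78 CPM with CL at 2 months. Aged Bdh1 levels were 6.16, 5.54 and 5.299 CPM with vehicle and 1.65, 2.43, 1.37 and 2.104 CPM with CL. For Bdh1 the CL libraries lay below the vehicle libraries at both ages. It fell at 12 months (-1.35 ± 0.23, adjusted p = 3.17e-04) and at 2 months (-0.87 ± 0.20, adjusted p = 0.00282). Kmo, of tryptophan breakdown, fell by 1.02 and 0.96 on the log2 scale at 2 and 12 months. Tet1, which oxidises methylcytosine in DNA, differed by -0.76 at 2 months and by -0.998 at 12 months. The glycan enzymes Chst10 (-0.70 and -0.85), Cmah (-0.94 and -0.98) and B3gnt5 (-0.88 and -0.91) and the peptidoglycan amidase Pglyrp2 (-0.88 and -1.02) fell at both ages, and the sulfotransferase Chst3 passed at 2 months alone (-0.77 and -0.74).

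Of the 15 receptors, secreted and adhesion proteins, 7 fell with CL at 12 months. Of the 13 past the floor under both treatments, 5 fell and 2 rose at 2 months, and 6 fell at 12 months. Mup10, a major urinary protein that binds small lipophilic ligands, stood at 26.2, 42.8, 71.3 and 59 CPM with vehicle and 207, 339.9, 212 and 240.0 CPM with CL at 2 months. Aged Mup10 levels were 7.54, 7.33 and 8.55 CPM with vehicle and 15.01, 9.398, 2.36 and 12.8 CPM with CL. It rose with CL at 2 months (2.64 ± 0.42, adjusted p = 2.54e-04) and did not pass at 12 months (0.53 ± 0.47, adjusted p = 0.376), where library Old_CL 3 lay below all 3 vehicle libraries; reads of near-identical family members could be split by the counting, so its level is uncertain. Igfbp2, which binds insulin-like growth factors, stood at 3.96, 5.38, 6.79 and 6.76 CPM with vehicle and 1.96, 1.74, 3.27 and 1.29 CPM with CL at 2 months. Aged Igfbp2 levels were 0.308, 0.892 and 0.308 CPM with vehicle and 0.127, 0.498, 0.174 and 0.245 CPM with CL, on 2 to 46 counts per library. For Igfbp2 the CL libraries lay below the vehicle libraries at 2 months and overlapped with them at 12 months. It differed by -1.24 ± 0.33 at 2 months and by -0.93 ± 0.47 at 12 months. Itm2a, a membrane protein of T cells and of developing muscle and fat, stood at 53.8, 56.5, 63.99 and 65.2 CPM with vehicle and 47.8, 55.8, 48.9 and 29.4 CPM with CL at 2 months. Aged Itm2a levels were 12.5, 19.9 and 13.9 CPM with vehicle and 7.89, 7.41, 7.03 and 7.88 CPM with CL. Its young levels overlapped between vehicle and CL (-0.092 ± 0.16, adjusted p = 0.658), and it fell at 12 months (-0.81 ± 0.18, adjusted p = 0.00198). Dsc2, a desmocollin of cell junctions next to the member Dsc3 on the chromosome, stood at 4.95, 10.1, 6.36 and 9.33 CPM with vehicle and 2.87, 2.77, 2.62 and 2.13 CPM with CL at 2 months. Aged Dsc2 levels were 3.39, 2.83 and 1.37 CPM with vehicle and 0.827, 0.8293, 0.646 and 1.13 CPM with CL. All Dsc2 values with CL lay below all those with vehicle at the same age. Its log2 difference was -1.24 at 2 months and -1.25 at 12 months.

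Cnr2, the cannabinoid receptor of leukocytes, stood at 42.9, 67.5, 68.4 and 67.1 CPM with vehicle and 24.98, 21.9, 31.2 and 35.96 CPM with CL at 2 months. Aged Cnr2 levels were 31.7, 29.8 and 21.3 CPM with vehicle and 13.8, 15.3, 12.6 and 14.98 CPM with CL. For Cnr2 the CL libraries lay below the vehicle libraries at both ages. It fell at both ages (-0.81 and -0.70). Receptors of nerve growth factors were low at 12 months and did not pass for CL at either age: Ntrk3 had aged to young ratios of 0.312 with vehicle and 0.229 with CL and CL changes of 0.59 and 0.02, and Ngfr had ratios of 0.457 with vehicle and 0.413 with CL and changes of -0.43 and -0.60. Neither Stc1, a secreted glycoprotein hormone (-0.25 and 0.12), nor Orm3, an acute-phase protein with close copies (0.014 and -0.21), passed for CL, and nor did Il22ra2, a decoy receptor for an interleukin (-0.76 and -0.34). Cxadr, an adhesion molecule that overlaps Btg3 on the other strand, rose at 2 months by 1.32 (adjusted p = 0.00102). Vipr1, a receptor for vasoactive intestinal peptide, fell by 1.02 and 0.88. Edaradd, an adaptor of ectodysplasin signalling (-0.81 and -0.69), and the lectin Clec2i (-0.97 and -0.90) fell at both ages.

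The microRNA hairpins overlap other chosen genes on the same strand, Mir5114 in Scd2, Mir8119 in Lck and Mir8113 in Cd27, so their counts cannot be told apart from those of the host transcripts in polyadenylated RNA. They moved with their hosts: Mir5114 rose with CL at 2 months by 1.65 and Scd2 by 1.76, and Mir8119 fell by 0.85 and Lck by 0.76.

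The difference between the CL responses at the 2 ages equals the difference between the age contrasts that the rule bounded at 0.5, so it is described here and nothing is read from its calls. The interaction term called 3 of the 167 genes, where 3.77% of all tested genes were called lower and 3.31% higher. For Ppp1r3b the log2 response at 12 months minus that at 2 months was -2.22 ± 0.49, for Elovl6 -2.06 ± 0.502 and for Scd2 -1.08 ± 0.18. Mup10 was at -2.11 without a call. In either direction 15 of the 167 had an unadjusted p under 0.05 by edgeR, and DESeq2 called 5 lower and 1, Slc27a2, higher. Of the 69 lymphocyte genes none was called, 1 at an unadjusted p under 0.05; DESeq2 and limma-voom called none of them, and without Young_Ctrl 4 Cd69 was called lower. None of the 3 calls held without the 5 muscle-rich libraries, and with Old_CL 1, 2 and 4 summed Scd2 alone remained. Without Young_Ctrl 1 the count was 7, without Young_CL 3 it was 5 and without Old_Ctrl 4 it was 1, since Elovl6 (-2.13) and Ppp1r3b (-2.07) were then no longer called. Elovl6 also missed the threshold without Young_Ctrl 2, Young_Ctrl 3, Young_CL 1, Old_Ctrl 1 or Old_CL 2, with differences of -1.87 to -2.07 that had moved little.

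**Figure D5:**
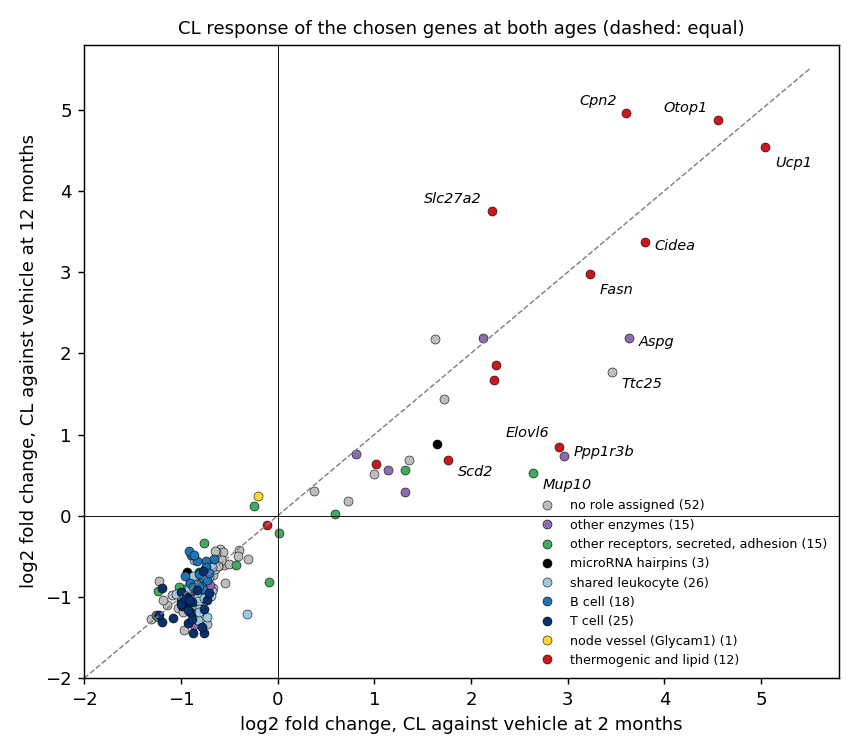
Log2 fold change with CL at 2 months (horizontal) and at 12 months (vertical) for the 167 genes, 1 point per gene coloured by role; the dashed line marks equal changes. Lymphocyte genes gather near -0.83 and -0.95, the medians of the 69, and the thermogenic and lipid genes spread from near 0 to 5.04, with Elovl6, Ppp1r3b and Mup10 far below the line.

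At the edge of the rule, the 3 genes nearest inside the ratio of 0.5 were Gimap4 (0.437 with vehicle and 0.4997 with CL), Cd69 (0.4989 and 0.282) and Cnr2 (0.449 and 0.497). The 3 nearest outside were Mef2c, a transcription factor of B cells and muscle (0.502 and 0.477), Cd79a, the partner of Cd79b in the B cell receptor (0.426 and 0.502), and Rbm38, an RNA-binding protein (0.502 and 0.495).

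Markers of other cell types moved with the groups as well. Macrophage markers summed to 2292 to 3175 CPM in young vehicle, 1082 to 2459 CPM in young CL, 3300 to 6157 CPM in aged vehicle and 1811 to 2548 CPM in aged CL libraries. Of 15 tested, 11 were called higher with age under vehicle and 4 under CL, against 15.1% and 20.5% of all tested genes. Adipocyte identity genes summed to 34640 to 73180 CPM in young vehicle, 73020 to 80240 CPM in young CL, 53820 to 70500 CPM in aged vehicle and 95900 to 107900 CPM in aged CL libraries, with the highest values in the aged CL libraries. Erythrocyte markers summed to 386 to 551 CPM in young vehicle, 389.8 to 593 CPM in young CL, 458 to 1035 CPM in aged vehicle and 961 to 1234 CPM in aged CL libraries, and Schwann cell markers to 761 to 872 CPM in young vehicle, 522 to 704 CPM in young CL, 425 to 494 CPM in aged vehicle and 347 to 383 CPM in aged CL libraries. The part of these in the levels of the 167 genes was not tested. No member came from the lists of collagens, matrix assembly, cell proliferation, imprinted growth genes, transforming growth factor signalling, axon guidance, homeobox genes, histones or progenitor genes. The Wnt list held the T cell factors Lef1 and Tcf7, and the list of insulin-like growth factor genes held Igfbp2. With 167 members among 15288 tested genes, nothing is read from an empty list. Of 39 tested proliferation genes, 5 were called lower with age under vehicle and 35 under CL, against 12.2% and 19.4% of all tested genes.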

How the data were processed

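Raw counts of reads per gene for 24015 genes in 15 polyadenylated RNA libraries were used as deposited by the authors, who, per the submitters' processing notes, aligned with STAR to mm9 and counted with featureCounts of Subread. Their versions, the annotation and the strand setting are not given in the sources used here. Levels are CPM, the count divided by the library total. Changes were tested with edgeR 4.0.16 in R 4.3.3: TMM factors, filterByExpr by group (15288 genes), 1 mean per group over all 15 libraries, the robust quasi-likelihood F test and Benjamini-Hochberg adjustment over all tested genes, with calls at an adjusted p below 0.05. Every adjusted p in the text comes from this test. Total counts of 6115542 to 51577001 per library set the precision, and limits from 3 counts cover counting error only.

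The genes, roles and lists were chosen with earlier results of these data known. Values in every library are given for the 10 genes with the highest young mean CPM, the 12 with the lowest product of the 2 age ratios, up to 8 with the largest called rise and fall with CL at each age and in the interaction, and the 3 on each side of the ratio threshold, except for a few genes that are not reported here. Ms4a1, Cd3e, Lck, Glycam1, Stard4 and the other genes named outside that rule were chosen after their values were seen. Alternatives were RLE and upper-quartile factors, DESeq2 1.42.0, limma-voom (limma 3.58.1), other filters, the replicate number as a block, leaving out libraries, the mean of the B cell and node markers as a covariate and, chosen after seeing the data, library totals without factors. On simulated data with 100 genes changed 2-fold and 100 changed 4-fold among 15288, edgeR recovered 79% and 99% for CL at 2 months, 77% and 97% at 12 months, and 57% and 90% for the interaction. Promoters are from RefSeq, build GRCm38.p6, matched by symbol for 114 of the 167 genes; 165 of the 167 were in the gene annotation, 162 of them protein coding.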

Additional observations from a re-analysis of the deposited data

Results flagged for a closer look

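In each group of 4 libraries the gap between the highest or lowest library and its nearest neighbour was divided by the whole range, for the 39 genes given library by library under the naming rule. A library stood apart, past the critical value of Dixon's test, in 13 of 117 such groups. Chance flags about 1 in 20 groups, but the genes vary together within groups, so the 13 are not independent and are not compared with that rate. Library Old_CL 3, which is also rich in muscle transcripts, lay lowest and apart for 7 genes: Ptprc (0.942 of the range), Ets1 (0.994), Dgka (0.879), H2-Ob (0.928), Txk (0.83), Ms4a4b (0.894) and Gimap4 (0.866). All are genes of lymphocytes or move with them, and without Old_CL 3 the number of the 167 genes that fell with CL at 12 months was 105 in place of 116. Library Young_Ctrl 1 lay apart for 4 genes, highest for Fasn (0.832), Elovl6 (0.94) and Ucp1 (0.928) and lowest for Cnr2 (0.948). It was thus the young vehicle library with the highest levels of these lipid and thermogenic genes and the lowest of this leukocyte receptor. Cpn2 was apart in Young_Ctrl 2 (0.832) and Ucp1 in Young_CL 1 (0.857), both as the highest of their group.

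The interaction term was called for Ppp1r3b (-2.224 on the log2 scale), Elovl6 (-2.063) and Scd2 (-1.078), each lower at 12 months. The rule bounded the age contrasts this term is made of, so the calls are no independent test. None held without the muscle-rich libraries, and Scd2 alone held with Old_CL 1, 2 and 4 summed. Their part in glycogen, elongation and desaturation is given with their values above.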

How the results depend on the processing

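Under TMM-scaled and RLE-scaled library sizes 91 and 98 genes met the rule in place of 167, with a ratio of at most 0.4 it was 47 and of at most 0.6 it was 371. Leaving out 1 library gave 110 (Old_Ctrl 4) to 253 (Young_Ctrl 1), and without the 5 muscle-rich libraries 221 met it, 144 of them among the 167. The genes that fell with CL numbered 108 to 128 at 2 months and 93 to 125 at 12 months when 1 library was left out, and those that rose 25 to 28 and 15 to 18. With the mean of the B cell and node markers in the fit 0 of the 167 fell at 2 months (main 124; 41 had an unadjusted p under 0.05 in either direction by edgeR, and DESeq2 without the covariate called 127) and 35 at 12 months (main 116). That mean contains 10 of the genes and was itself lower with CL, so nothing is read from the lost calls. Without the muscle-rich libraries 20 fell at 2 months and 54 at 12 months, with fewer samples in every group but young vehicle. In the interaction 3 genes were lower in the main fit, 5 with DESeq2 (which also called Slc27a2 higher), 1 with Old_CL 1, 2 and 4 summed, 0 without the muscle-rich libraries (10 at an unadjusted p under 0.05 by edgeR) and 1 to 7 when 1 library was left out. Where no cause is named it was not tested. Over all tested genes, risen against fallen with CL were 3323 and 3383 at 2 months and 3525 and 3391 at 12 months. Upper-quartile factors gave 2839 and 4491, and 2893 and 4086; library totals gave 1975 and 7331, and 2063 and 5908, with 24 risen and 136 fallen among the 167 at 2 months and 15 and 131 at 12 months. For single named genes, 1350 of 1395 alternative values kept their direction and side of the threshold, 37 were no longer past it and 8 came past it. Deviations of same-numbered libraries correlated at -0.134 to 0.105 at 2 months (mean -0.0062, different numbers 0.00057) and at 0.043 to 0.332 at 12 months (mean 0.193, different numbers -0.058). Not every pair passed 0.1 and not every library correlated best with its own number, so the numbers were not taken as pairs; with the replicate block 119 fell and 27 rose at 2 months, 108 fell and 19 rose at 12 months, and the interaction called 3. Depth limits genes with few counts, such as Cpn2, Slc27a2, Trat1 and Igfbp2 in aged libraries.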
